A study of Mus musculus with 6 samples.

Results

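The genes described here are 36 mouse genes of glycolysis and of the entry of pyruvate into the mitochondrion, out of 21911 protein-coding genes in GENCODE release 21 for mouse. They were chosen by name, from their place in the pathway. All H3K4me3 peaks within 1 kb of any annotated transcript start of these genes were collected. H3K4me3, trimethylation of lysine 4 on histone H3, is a mark of active and poised promoters.

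The study tested small molecules that protect a cell model of Huntington's disease, and it asked, among other things, how they act on energy metabolism. The cells were STHdh cells, immortalised striatal progenitor lines of strain C57BL/6. The 6 samples gave 6 peak lists, 1 per condition. Each condition was held for 24 h in medium without serum. Q7SST is the wild-type STHdhQ7 line with vehicle, and Q111SST is the mutant STHdhQ111 line with vehicle, which expresses huntingtin with an expanded glutamine tract. The other 4 lists came from STHdhQ111 cells given cyproheptadine, loxapine, diacylglycerol kinase inhibitor II (DKI) or meclizine, each at 10 uM. The wild-type and mutant conditions are 1 cell line each, so genotype and other differences between the lines cannot be told apart. A single list stood for each condition, without replicates, so conditions were not tested against each other and every difference describes these lists alone.

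Glycolysis splits glucose into pyruvate. Glucose enters through Slc2a transporters, is trapped and split by the enzymes of the upper pathway, and yields ATP and pyruvate in the lower pathway. Pyruvate is then either reduced to lactate, which leaves through Slc16a transporters, or carried into mitochondria and oxidised by the pyruvate dehydrogenase complex. Many steps have several isoenzymes, each used by particular tissues. Hif1a, a transcription factor of the hypoxia response, is known to activate many of these genes.

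A gene was called marked in a list when at least 1 peak lay within 1 kb of a start. Each deposited peak has a whole-number score on a scale the sources used here do not give, so scores were ranked within their own list. Strength is the percentile at which the gene's strongest peak ranks in its list. The lists held between 30758 peaks (DKI) and 45564 peaks (loxapine), their lowest score was 10 in each, and read depth is unknown. A list with more weak peaks gives a given promoter peak a higher percentile. Among neural progenitor markers, Vim, Dlx1 and Dlx2 were marked in all 6 lists. Sox2 was marked in 5 lists and not in Q7SST, and of 5 striatal neuron markers Ppp1r1b was marked in 4 lists, Adora2a and Bcl11b in Q7SST alone, and Drd1 and Drd2 in 0. Of 4 neuron markers, Map2 and Tubb3 were marked in all 6 lists and Rbfox3 and Snap25 in 0. Of 3 astrocyte markers, 0 were marked in all 6 lists, 2 in some and 1 in none. All 10 markers of muscle, liver and blood were unmarked in every list.

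Nearly all member genes were marked. The counts of 36 were 34 in Q7SST, 35 in Q111SST, 33 under cyproheptadine, 34 under loxapine, 34 under DKI and 35 under meclizine. Over all protein-coding genes the marked share lay between 55.4% with cyproheptadine and 59.9% in Q7SST. Of the members, 33 were marked in all 6 lists. Fbp1, a fructose-1,6-bisphosphatase best known from liver and kidney, was marked in 0 lists, and its nearest peak lay between 13965 bp and 16145 bp from a start. Aldoc, the brain aldolase, was marked in Q111SST and with meclizine, each time weakly. Eno3, the muscle enolase, had no peak in reach with cyproheptadine.

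A further 36 genes of the pathway that are not members were marked less widely. Of these, 20 were marked in all 6 lists, 12 in none and 4 in some, and the 21 marked in Q111SST stood beside 58.4% of all protein-coding genes. Among the unmarked genes were isoenzymes of liver (Pklr, G6pc, Pck1), testis (Gapdhs, Pgk2, Ldhc, Pdha2) and muscle (Pgam2), and also Hk3, Ldhal6b and G6pc2. Other forms best known from particular tissues were marked in all 6 lists, among them Eno4, Pfkfb1 and Slc2a4. Pgk1, the widely used phosphoglycerate kinase, was marked in all 6 lists at percentiles from 45.4 to 63.4. Slc2a2, the glucose transporter of liver and pancreatic islets, was marked in 4 lists and never above percentile 17.1.

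Promoter sequence was set beside the marking. RefSeq promoter windows on GRCm38.p6, each 250 bases before and 50 bases after a transcript start, were found for 35 of the 36 members, 52 windows in all. Slc2a3 had no entry. A CpG dinucleotide is a C followed by a G, and promoters rich in it usually carry H3K4me3. The 35 member windows overlapped by a peak in all 6 lists had a median of 20 CpG dinucleotides, against 21 in the 8481 such windows of all protein-coding genes. The 9 member windows overlapped in 0 lists had a median of 3, against 4 in all 8787 such windows. The sequences that follow show a CpG-rich window marked in all lists (Ldha), a CpG-rich window marked in 0 lists (Slc16a3), a window marked in Q7SST alone (Hif1a) and a CpG-poor window marked in 0 lists (Fbp1). Each runs 5′ to 3′ on the gene's strand up to its start or just short of it, and capitals mark CpG dinucleotides.
Ldha: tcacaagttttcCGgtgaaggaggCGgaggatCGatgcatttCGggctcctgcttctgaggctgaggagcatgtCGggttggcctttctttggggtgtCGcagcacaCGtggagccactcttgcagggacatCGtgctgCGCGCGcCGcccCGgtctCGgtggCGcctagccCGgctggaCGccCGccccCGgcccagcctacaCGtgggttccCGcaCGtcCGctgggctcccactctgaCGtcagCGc
Slc16a3: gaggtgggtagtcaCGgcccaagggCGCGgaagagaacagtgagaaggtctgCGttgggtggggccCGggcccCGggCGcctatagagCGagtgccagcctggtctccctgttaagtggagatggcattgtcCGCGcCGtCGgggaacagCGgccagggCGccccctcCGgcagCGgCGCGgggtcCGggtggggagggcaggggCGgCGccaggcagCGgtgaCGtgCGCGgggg
Hif1a: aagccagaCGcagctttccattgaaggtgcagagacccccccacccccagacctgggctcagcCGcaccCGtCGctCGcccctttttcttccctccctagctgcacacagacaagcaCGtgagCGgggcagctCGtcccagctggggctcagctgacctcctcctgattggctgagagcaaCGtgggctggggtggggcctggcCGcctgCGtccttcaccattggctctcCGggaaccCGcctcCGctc
Fbp1: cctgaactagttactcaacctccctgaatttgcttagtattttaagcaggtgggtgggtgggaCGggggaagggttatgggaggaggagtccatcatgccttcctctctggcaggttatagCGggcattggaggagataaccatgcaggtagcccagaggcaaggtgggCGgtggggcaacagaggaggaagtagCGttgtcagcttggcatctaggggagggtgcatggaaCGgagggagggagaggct

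The Ldha sequence is chr7:46845554-46845803 on the plus strand, 250 bases with 25 CpG dinucleotides. The Slc16a3 sequence is chr11:120948817-120949052 on the plus strand, 236 bases, also with 25. The Hif1a sequence is chr12:73907617-73907866 on the plus strand with 14, and the Fbp1 sequence is chr13:62888283-62888532 on the minus strand with 5. Of the whole windows, Slc16a1 had the most CpG dinucleotides at 42, and it was overlapped in all 6 lists. Slc16a3 at 36 and Gpi1 at 21 were overlapped in 0 lists. Slc16a3 was marked at another group of starts. For Gpi1 the peaks lay just downstream of its window, which begins at position 34230287 on the minus strand, and the nearest, with DKI, ended at 34230276.

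**Figure D1:**
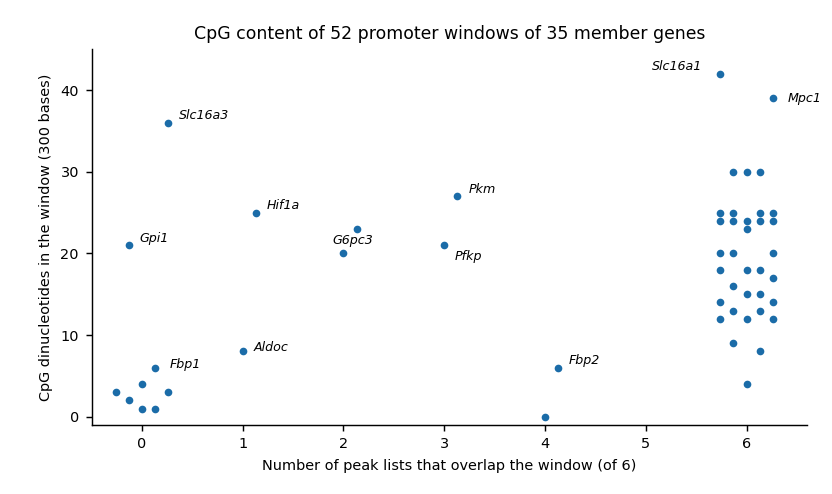
The horizontal axis gives the number of the 6 peak lists with a peak over a promoter window, the vertical axis the CpG dinucleotides in its 300 bases, and each point is 1 of 52 windows of 35 member genes, spread sideways only to avoid overlap. Of the 9 windows at 0 lists, 7 hold 6 or fewer, Slc16a3 with 36 and Gpi1 with 21 are the exceptions, and the 35 windows at 6 lists run from 4 to 42.

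The letters ACGTG, the core that hypoxia-inducible factors are known to bind, were searched on both strands in these windows. They stood in at least 1 window of 19 of 35 members (54.3%) and of 3903 of 16522 protein-coding genes (23.6%). GCGTG, the other common form of that core, was found in 62.9% of members and 42.6% of genes. The E-box letters CACGTG, which contain ACGTG, were found in 25.7% of members and 9.18% of genes. The GC-box letters GGGCGG were present in 68.6% of members and 51.0% of genes, and the TATA-box letters TATAAA in 5.71% and 14.3%. Among windows overlapped in all 6 lists, 45.7% of 35 member windows and 27.0% of 8481 windows of all genes held ACGTG. Within the same windows GCGTG stood at 65.7% and 54.8%, and CACGTG at 17.1% and 10.4%. The order turned for GGGCGG, with 62.9% of member windows and 67.1% of all, and TATAAA was near equal at 5.71% and 6.13%. The 250 bases of Ldha printed above hold ACGTG at 5 places and those of Hif1a at 3, counting both strands, while the Slc16a3 bases hold 1 and the Fbp1 bases 0. These are matches of letters, and binding was not measured.

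As a group, the marked members ranked lower than marked genes in general, and a few of them had broad peaks. The median strength of marked members was 76.6 in Q7SST, 75.8 in Q111SST, 69.7 under cyproheptadine, 74.0 under loxapine, 66.1 under DKI and 73.7 under meclizine. The median over all marked genes was higher in each list, at 80.4, 82.6, 79.5, 83.0, 76.3 and 80.3 in the same order. Between 1 member (cyproheptadine and DKI) and 4 members (Q7SST) lay above percentile 90, against 21.7% to 30.9% of all marked genes.

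Broad peaks of 3 kb or more stood at 14.7% of marked members in Q7SST and 14.3% in Q111SST, against 5.01% and 6.30% of all marked genes. With the compounds the share of members was 9.09% (cyproheptadine), 17.6% (loxapine), 11.8% (DKI) and 14.3% (meclizine), against 2.94%, 5.49%, 2.07% and 5.30% of all marked genes. Each share of members rests on 3 to 6 genes. They were Eno1, Gapdh and Pgam1 of the lower pathway in most lists, with Pfkfb2, Slc16a1 and Pkm in some. Eno3 was counted too in the 5 lists other than cyproheptadine, but its broad peak lies over the start of Pfn1. Median widths of members, from 1653.5 bp (DKI) to 1884.5 bp (loxapine), stayed close to those of all marked genes, from 1461 bp (DKI) to 1795 bp (Q111SST).

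**Figure D2:**
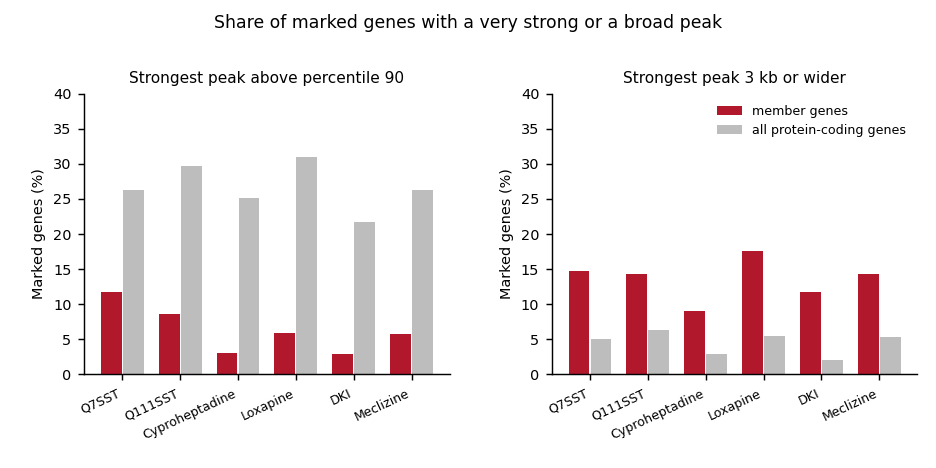
Bars give the percentage of marked genes in each list whose strongest peak lies above percentile 90 (left) or is 3 kb or wider (right), for the member genes and for all protein-coding genes, with 1 list per condition and no error bars. In each of the 6 lists the member bar is the lower one for very strong peaks and the higher one for broad peaks.

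Many members have several annotated starts. When starts within 1 kb of each other were joined, the 36 genes had 109 groups of starts, of which 42 (38.5%) were marked in all 6 lists, 52 in at least 1 and 57 in none. Over all protein-coding genes, 27.75% of 48591 groups were marked in all 6. In 14 members more than 1 group was marked, in some of them, such as Hk2 and Gapdh, by the same peak. Where different peaks mark a gene, the strongest can change its place between lists.

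**Figure D3:**
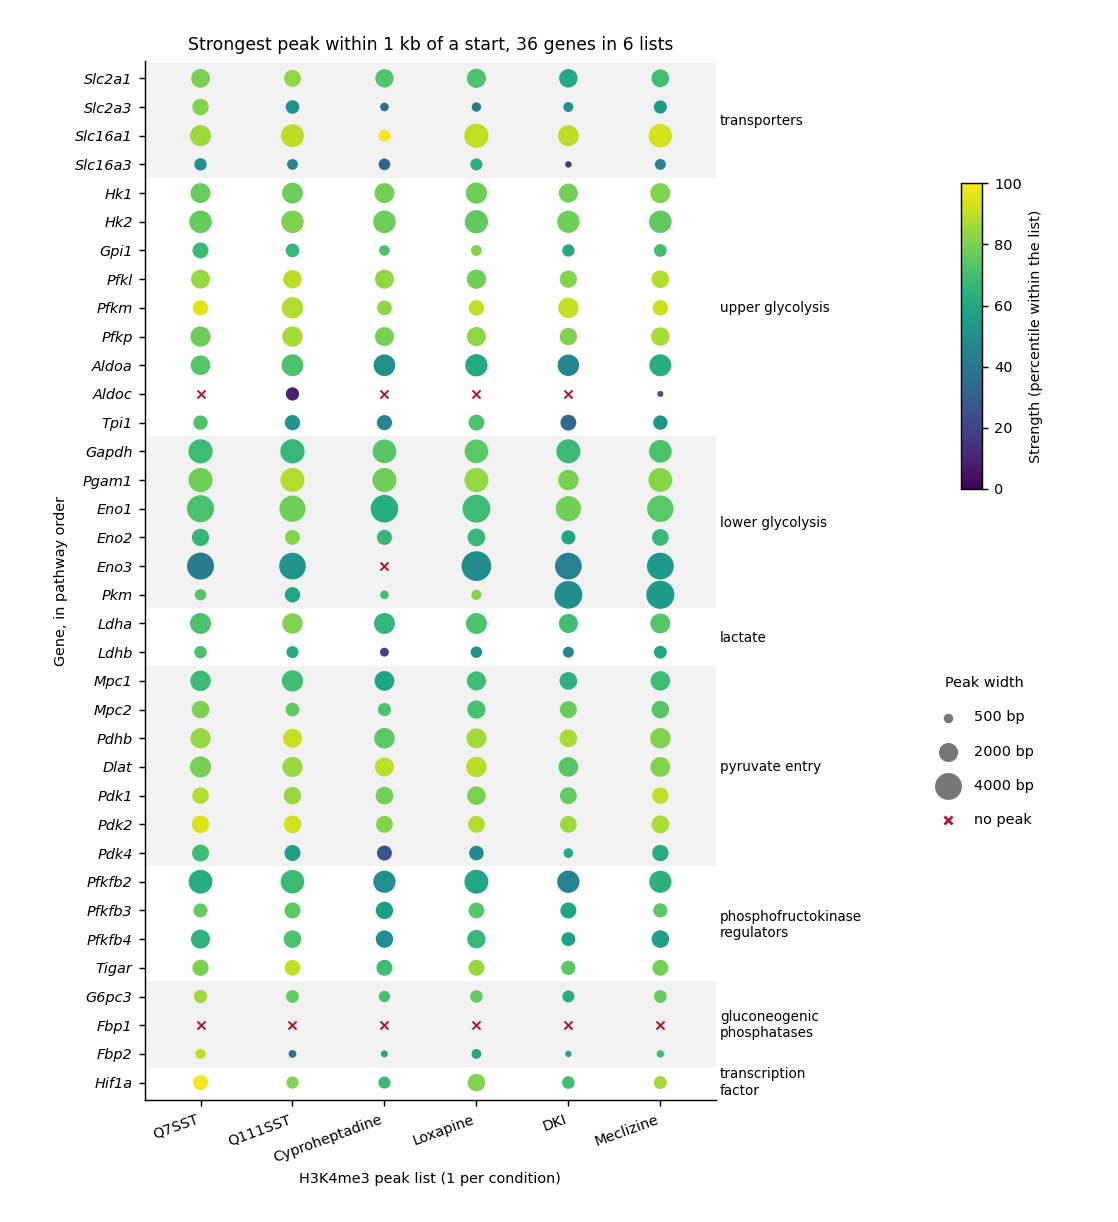
Rows are the 36 genes in pathway order, columns the 6 peak lists (1 per condition), colour gives the percentile of the strongest peak within 1 kb of a start, circle area its width in bp, and a cross marks no peak. Hk1, Hk2 and Gapdh keep nearly the same colour across lists, Fbp1 has crosses in all 6, and Ldhb and Pdk4 are darkest with cyproheptadine.

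Slc2a1 (chr4:119108711-119137983) encodes the glucose transporter of most cell types. Its strength was 80.1 in Q7SST and 83.4 in Q111SST, and it was 72.6 under cyproheptadine, 72.2 under loxapine, 59.9 under DKI and 69.9 under meclizine. Both vehicle lists were above all 4 compound lists. The deposited scores were 112 and 114 in the vehicle lists and between 58 and 92 in the compound lists. Their scale is not stated, so they cannot be compared between lists. The peak covered annotated starts in all 6 lists, with widths from 1573 bp in Q111SST to 2018 bp with loxapine.

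Slc2a3 (chr6:122727809-122801640, minus strand) encodes the high-affinity glucose transporter of neurons. Wild-type and mutant lists marked different starts of this gene. In Q7SST the peak chr6:122741300-122742797, with score 115 and percentile 81.1, covered 4 of a cluster of 5 starts that lie 58720 to 59378 bp downstream of the first annotated start, and no peak touched the first start. In all 5 mutant-line lists the order was reversed, with a peak over or within 205 bp of the first start (position 122801640) and none in the window around the cluster. The strength at that first start was 49.9 in Q111SST, 35.0 under cyproheptadine, 42.7 under loxapine, 50.8 under DKI and 53.6 under meclizine. With loxapine, DKI and meclizine, small peaks of 221 bp, 217 bp and 244 bp lay just downstream of the cluster, beyond the 1 kb window.

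Slc16a1 (chr3:104638668-104658462), the main carrier of lactate and pyruvate across the cell membrane, had the strongest peaks of the transporters. Its strength ran from 85.4 in Q7SST and 89.8 in Q111SST to 89.7 with DKI, 90.4 with loxapine, 93.7 with meclizine and 99.2 with cyproheptadine. With cyproheptadine the domain was split into 2 peaks with a summed width of 1524 bp, and no peak covered the start. The stronger peak, of 768 bp, lay 638 bp downstream of the start. The other, of 756 bp, ranked at 85.7, below Q111SST at 89.8. In the other 5 lists a single peak of 2389 to 3239 bp covered the start.

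Slc16a3 (chr11:120948480-120960868) encodes the lactate exporter of glycolytic cells. Only its second group of starts (positions 120950688 to 120951138) was marked, while the CpG-rich window shown above, which lies over the first group, had no peak in any list. Strength was 50.8 in Q7SST, 45.2 in Q111SST, 32.0 under cyproheptadine, 63.9 under loxapine, 14.9 under DKI and 44.7 under meclizine. The DKI peak was also the narrowest, 228 bp against 638 to 844 bp elsewhere.

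Hexokinases trap glucose by phosphorylation. Hk1 and Hk2 were the steadiest members. Hk1 lay between percentile 76.8 and 80.7 and Hk2 between 75.5 and 80.4 over all 6 lists. The median range over the 33 members marked in all lists was 20.1 points, against 14.4 points over 11713 protein-coding genes. Hk1 was marked at only 1 of its 9 groups of starts (position 62340542 of chromosome 10), and its most upstream start had no peak. Gpi1, the glucose phosphate isomerase, lay between 61.3 with DKI and 81.4 with loxapine, and its loxapine peak was narrow, 652 bp against 1034 bp in Q111SST.

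Phosphofructokinase commits sugar to glycolysis, and its 3 genes were marked in all 6 lists at percentiles from 77.6 to 95.7. Pfkm (chr15:98092589-98132451), the muscle form, ran from 83.1 with cyproheptadine to 95.7 in Q7SST and was the strongest of the 3 in 4 lists, while Pfkl was in Q111SST and with cyproheptadine. It had 2 peaks in each list. The one at its first starts is shared with the neighbouring gene Senp1 and was the stronger in Q111SST and with DKI, and the other lies at the start 98108466. Pfkl, the liver form, ran from 78.3 (loxapine) to 89.6 (Q111SST) and Pfkp, the platelet form, from 77.6 (Q7SST) to 87.0 (meclizine).

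Aldolases split the 6-carbon sugar. Aldoa (chr7:126795234-126809108), the form of muscle and most proliferating cells, had strength 73.8 in Q7SST and 71.5 in Q111SST. It was 49.6 under cyproheptadine, 60.8 under loxapine, 46.1 under DKI and 63.1 under meclizine, so all 4 compound lists were below both vehicle lists. The Q7SST value is that of the peak at the first start, and the others are those of the second group of starts. At the first start Q7SST stood at 73.8 and Q111SST at 59.0, and at the second group at 70.2 and 71.5, with the compound lists below both at each. Width stayed between 2144 and 2736 bp over the strongest peaks. Aldoc (chr11:78322968-78327781) had a peak of 973 bp at percentile 8.76 in Q111SST and one of 203 bp at 24.9 with meclizine, the latter 570 bp from the start. In the other 4 lists the nearest peak lay 2472 to 2669 bp away.

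Tpi1 (chr6:124810586-124814296), triosephosphate isomerase, was highest in Q7SST at 72.3 and with loxapine at 71.7. It was lower in the other lists, at 53.1 in Q111SST, 45.4 with cyproheptadine, 33.5 with DKI and 52.9 with meclizine. Widths were similar, from 1134 to 1401 bp.

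In the lower pathway, Gapdh (glyceraldehyde-3-phosphate dehydrogenase) ranged only from 67.1 in Q111SST to 74.4 with loxapine. Its peak was 3 kb or wider in 5 lists and 2852 bp with meclizine, at most 3261 bp of a gene that spans chr6:125161715-125166467. Pgam1, phosphoglycerate mutase, lay at 88.4 in Q111SST and between 78.1 and 84.0 in the other 5 lists. Eno1, the ubiquitous enolase, had the widest peak that covered a start of its own in 4 lists, between 3510 and 4263 bp over all 6, and strengths from 63.1 with cyproheptadine to 78.3 in Q111SST.

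Eno2 (chr6:124760053-124769673), the neuronal enolase, had the largest downward shift from Q111SST among members in Q7SST and with loxapine when strongest peaks were compared. At the same group of starts Hif1a was lower in both, at -80.1 and -19.0 points. The strength of Eno2 was 81.3 in Q111SST, 66.4 in Q7SST, 67.1 under cyproheptadine, 66.8 under loxapine, 59.1 under DKI and 67.1 under meclizine. Q111SST thus stood above the other 5 lists, which lay between 59.1 and 67.1. Eno3 was reached by a broad peak of Pfn1, the profilin gene next to it, that ended 662 to 856 bp before the first Eno3 start in 5 lists and 1657 bp before it with cyproheptadine. No list had a peak over an Eno3 start.

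Pkm (chr9:59656368-59679375), pyruvate kinase, makes pyruvate. In DKI and meclizine 1 peak of 4262 bp and 4357 bp covered all its first starts, at percentiles 48.9 and 54.9. In the other 4 lists the domain was cut into an upstream and a downstream peak. The upstream peak was narrow and stronger, 719 bp at 73.1 in Q7SST, 1301 bp at 59.0 in Q111SST, 411 bp at 69.7 with cyproheptadine and 570 bp at 81.1 with loxapine. In Q7SST, cyproheptadine and loxapine it ended 338, 410 and 347 bp before the first start. The downstream peak measured 2134 to 2553 bp at percentiles from 32.6 to 53.1. Strength at Pkm was thus higher where the marked domain was deposited as separate peaks.

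**Figure D4:**
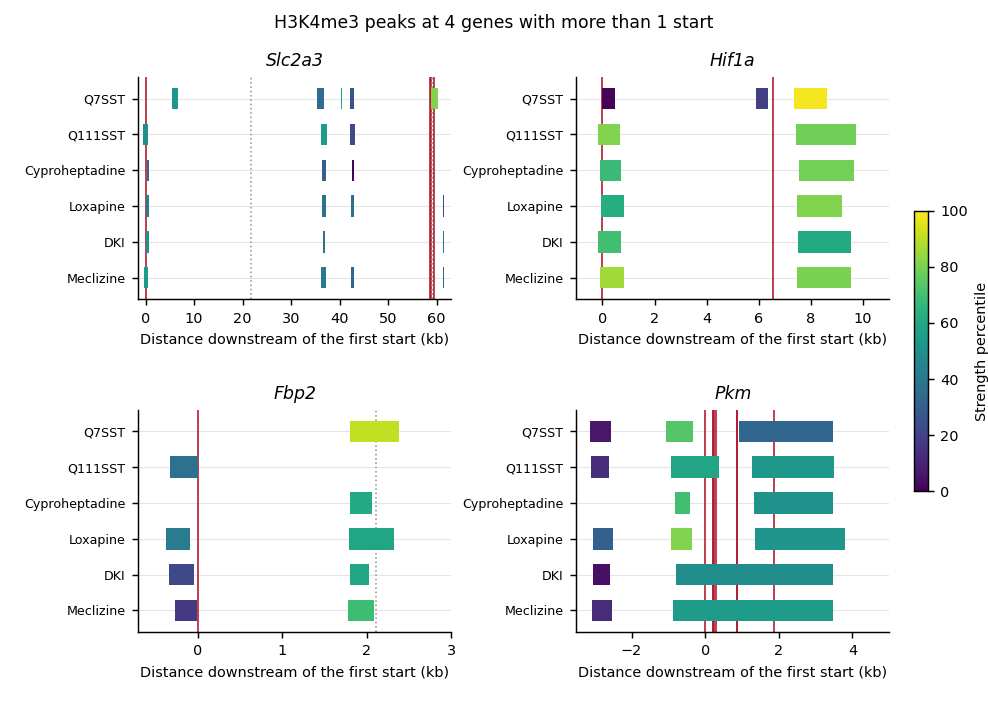
For 4 genes, bars show H3K4me3 peaks in each list by their distance in kb downstream of the gene's first annotated start, coloured by percentile within the list, with solid red lines at starts of protein-coding transcripts and dotted grey lines at other starts. Q7SST alone has the Slc2a3 peak near 59 kb, a weak first Hif1a peak and a strong second one, Q111SST alone lacks the inner Fbp2 peak, and DKI and meclizine have 1 long Pkm peak.

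Lactate dehydrogenase interconverts pyruvate and lactate. Ldha (chr7:46841475-46855627) encodes the subunit that favours lactate production. It stood at 80.7 in Q111SST, against 71.5 in Q7SST, 65.8 under cyproheptadine, 72.2 under loxapine, 69.8 under DKI and 73.7 under meclizine. Its peak covered the window printed above in all 6 lists and was 2023 to 2426 bp wide. Q111SST stood highest and cyproheptadine lowest.

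Ldhb (chr6:142490249-142507957) encodes the subunit of oxidative tissues and showed the second widest range among members, 51.3 points. It was highest in Q7SST at 71.5 and lower in Q111SST at 60.2. With the compounds it was 20.2 (cyproheptadine), 51.2 (loxapine), 46.1 (DKI) and 58.8 (meclizine). The cyproheptadine peak was also short, 443 bp against 663 to 905 bp elsewhere. Both subunits ranked lowest with cyproheptadine, and the shift of -40.0 points for Ldhb against Q111SST was the largest downward shift of any member in any list when strongest peaks were compared.

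The mitochondrial pyruvate carrier is formed by Mpc1 and Mpc2. Mpc1 lay between 58.5 with cyproheptadine and 69.5 with loxapine, and Mpc2 between 70.9 with loxapine and 80.4 in Q7SST. The strongest Mpc2 peak lay 816 bp and 830 bp upstream of the starts in Q111SST and with cyproheptadine, where the peak over the starts ranked at 71.1 and 63.1, and over the starts in the other 4 lists. Pdhb, a subunit of the first enzyme of the pyruvate dehydrogenase complex, ran from 74.9 (cyproheptadine) to 91.6 (Q111SST). Dlat, the second enzyme, ran from 73.7 (DKI) to 89.9 (cyproheptadine), and it and Slc16a1 were the members that ranked highest with cyproheptadine.

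Pyruvate dehydrogenase kinases switch that complex off. Pdk1, a known target of Hif1a, lay between 75.8 with DKI and 89.9 with meclizine, and Pdk2 between 81.3 with cyproheptadine and 94.7 in Q7SST. Pdk4 (chr6:5483351-5496309), the kinase induced by fasting and fatty acids, varied most. It was 68.6 in Q7SST and 56.2 in Q111SST, and 25.6 under cyproheptadine, 47.7 under loxapine, 60.6 under DKI and 61.5 under meclizine. The DKI peak at Pdk4 was 513 bp wide, against 1175 to 1584 bp in the other lists.

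The bifunctional enzymes Pfkfb2, Pfkfb3 and Pfkfb4 set the level of fructose-2,6-bisphosphate, the activator of phosphofructokinase, and Tigar degrades it. All 4 were at least 5 points lower than in Q111SST with cyproheptadine, where 44.1% of all genes were, and with DKI, where 55.9% were. Pfkfb3 was 76.0 in Q7SST, 74.7 in Q111SST, 55.1 under cyproheptadine, 73.6 under loxapine, 58.3 under DKI and 74.8 under meclizine, but these values come from different starts. At the group of starts around 11500863 cyproheptadine (55.1) and DKI (58.3) stood below the other 4 lists, at 68.6 to 74.7. At the first group, around 11553922, loxapine at 55.1 was also low, beside 49.6 with cyproheptadine and 54.3 with DKI. Tigar was 80.4 in Q7SST, 90.5 in Q111SST, 68.4 under cyproheptadine, 84.6 under loxapine, 74.3 under DKI and 79.2 under meclizine. Pfkfb2 ran from 44.1 with DKI to 68.0 in Q111SST and Pfkfb4 from 49.6 with cyproheptadine to 71.5 in Q111SST. The Pfkfb2 peak, 2731 to 3146 bp wide, also covers starts of Yod1 and Gm29427, so its values cannot be given to Pfkfb2 alone.

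Of the phosphatases that run the pathway backwards, G6pc3, the ubiquitous glucose-6-phosphatase, was marked in all 6 lists, from 62.7 with DKI to 85.7 in Q7SST. Fbp2 (chr13:62836877-62858422, minus strand), the muscle fructose-1,6-bisphosphatase, had the widest range of the members, 54.1 points, and its peaks lay at different starts. The coding start (position 62858422) was marked in Q111SST at 36.8, with loxapine at 41.7, with DKI at 21.8 and with meclizine at 17.1, and not in Q7SST or with cyproheptadine. The start of a non-coding transcript 2113 bp downstream was marked in Q7SST at 90.9 (score 151, 570 bp), with cyproheptadine at 60.2, loxapine at 58.8, DKI at 59.1 and meclizine at 68.7, and not in Q111SST.

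Hif1a (chr12:73901375-73947530) has coding starts at 73901375 and 73907904, and the balance of marks between them differed between the lines. At the first start the strength was 0.91 in Q7SST (score 14, 487 bp), 81.0 in Q111SST, 67.8 under cyproheptadine, 62.0 under loxapine, 69.8 under DKI and 86.2 under meclizine. The 5 mutant-line lists therefore had a peak at percentile 62.0 or above where Q7SST had one of the weakest in its list. Near the second start the order turned. Strength there was 98.5 in Q7SST (score 217, 1241 bp), 78.3 in Q111SST, 81.1 with loxapine, 60.6 with DKI and 79.8 with meclizine. These peaks began 7363 bp (Q7SST) to 7499 bp (DKI) downstream of the first start. The cyproheptadine peak of percentile 78.6 began at 7549 bp and so fell just outside the window around the second start, which lies at 6529 bp. Q7SST alone had a further peak over the promoter window printed above, 471 bp wide at percentile 18.6.

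The lists were then compared with Q111SST, the vehicle list of the mutant line. All 5 comparisons use that same list, so a low or high value in it enters each of them. A shift of at least 5 percentile points was counted, and a peak at least 25% wider or at least 20% narrower, for genes marked in both lists.

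Between the lines, 10 of 34 members ranked at least 5 points higher in Q7SST (17.8% of 12335 genes) and 12 ranked at least 5 points lower (27.4%). At the same group of starts 6 members ranked higher, 17.3% of genes doing so. The median shift of members was 0.303 points, against -1.04 points for all genes. The largest upward shifts were those of Fbp2 (54.1 points), Slc2a3 (31.2), Tpi1 (19.2) and Hif1a (17.5), of which all but Tpi1 rest on different starts. At the same group of starts the shift of Hif1a was -80.1 points, and Slc2a3 and Fbp2 had no group marked in both lists. Eno2 with -14.9 points and Eno3 with -11.0 points were the lowest. By role, 4 of 6 genes of the lower pathway and 3 of 4 phosphofructokinase regulators ranked lower in the wild-type line, and both marked phosphatases ranked higher. The counts by role, here and under the compounds, include Eno3 where it was marked and Pfkfb2, whose peaks lie over starts of other genes. In width, 7 members were wider (9.83% of genes) and 3 narrower (13.3%), and at the same group of starts 5 were wider (9.57%) and 2 narrower (12.7%).

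With cyproheptadine 24 of 33 members ranked lower (44.1% of 12061 genes) and 6 ranked higher (9.68%). The median shift was -10.8 points for members and -3.75 points for all genes. By these medians it was the list in which the members differed most from all genes. All 4 phosphofructokinase regulators, both lactate dehydrogenase genes, 5 of 7 pyruvate entry genes and 3 of 4 transporters were among those lower. Ldhb (-40.0 points), Pdk4 (-30.6), Tigar (-22.1), Aldoa (-22.0) and Pfkfb4 (-22.0) had the largest downward shifts, and Fbp2 (23.4), Pkm (10.7) and Slc16a1 (9.32) were the highest. Fbp2 had no group of starts marked in both of these lists. The Slc16a1 value is that of the stronger of 2 split peaks, and the other ranked at 85.7, below 89.8 in Q111SST. In lists cut to equal size, 18 members were lower (32.0% of genes), and after subtracting the median shift of all genes 18 were lower as well (29.4%). No member was wider (1.9% of genes) and 8 were narrower (29.3%).

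With loxapine 12 of 34 members ranked lower (22.4% of 12519 genes) and 6 higher (18.6%), with a median shift of -4.31 points against -0.352 points for all genes. Pkm (22.1 points), Fbp2 (22.0), Slc16a3 (18.7), Tpi1 (18.6) and Gpi1 (14.8) ranked higher, and Eno2 (-14.5), Pfkl (-11.3) and Slc2a1 (-11.2) lowest. At the same group of starts Fbp2 shifted by 4.90 points and Hif1a, whose strongest peak lay at another start, by -19.0 points, below these genes. Loxapine had the longest list, and with lists of equal size 21 members were lower (38.8% of genes). In width, 6 members were wider (5.58% of genes) and 4 narrower (13.7%), and at the same group of starts 4 were wider (5.25%) and 3 narrower (13.2%).

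With DKI 23 of 34 members ranked lower (55.9% of 12158 genes) and 1, Fbp2, ranked higher (8.49%). The Fbp2 shift compares different starts, and at the same group of starts it was -15.0 points, which left 0 members higher (8.22% of genes). The median shift was -8.30 points for members and -6.57 points for all genes, so the members moved much as genes in general did in this list, which was the shortest. With lists of equal size 12 members were lower (37.5% of genes) and 10 higher (21.9%). Slc16a3 (-30.3 points), Aldoa (-25.5), Pfkfb2 (-23.9), Slc2a1 (-23.6) and Eno2 (-22.2) had the largest downward shifts. In width, 2 members, Pkm and Mpc2, were wider (2.32% of genes) and 8 were narrower (40.7%), the Mpc2 value comparing different peaks. With peaks within 1 kb of each other merged, 0 members were wider (2.28%).

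With meclizine 9 of 35 members ranked lower (27.8% of 12615 genes) and 5 higher (10.6%), with a median shift of -0.552 points against -1.54 points for all genes. Pfkfb4 (-15.4 points), Eno2 (-14.2) and Slc2a1 (-13.5) were the lowest. Fbp2 (31.9 points) and Aldoc (16.1) were the highest, and the other 3 shifted upward by 5.24 to 5.29 points. The Fbp2 value compares different starts, and at the same group of starts its shift was -19.7 points. With lists of equal size 10 members were higher (16.1% of genes) and 9 lower (28.4%), and among marked genes 12 were higher (26.6%) and 9 lower (27.3%). After the median shift of all genes was subtracted, 10 were higher (15.1%) and 7 lower (20.5%). In width, 3 members were wider (6.1% of genes) and 3 narrower (12.8%), and with peaks within 1 kb merged 1 was wider (5.22%).

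**Figure D5:**
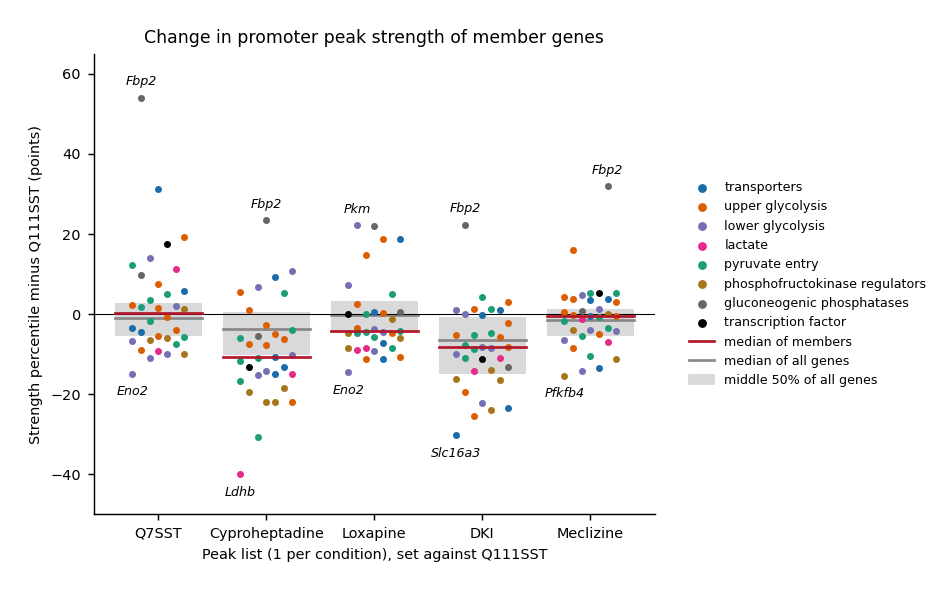
Points are member genes, coloured by role, at their strength percentile in each list minus that in Q111SST, with red lines at the members' median, grey lines at the median of all genes marked in both lists and grey boxes over the middle 50% of those genes. The red line lies furthest below the grey one with cyproheptadine (-10.8 against -3.75 points), where Ldhb is lowest, and Fbp2 is the highest point in all lists except loxapine.

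Few members were gained or lost outright. Q111SST already marked 35 of 36 members, so only Fbp1 could be gained, and it was not in any of the 5 comparisons. All genes gave 3.6% in Q7SST, 0.306% under cyproheptadine, 1.01% under loxapine, 0.269% under DKI and 1.02% under meclizine. Aldoc was lost in Q7SST (2.08% of genes lost), with cyproheptadine together with Eno3 (3.33%), with loxapine (1.24%) and with DKI (2.88%), and no member was lost with meclizine (0.799%). Genes that were marked in both lists but at no common group of starts were also counted. There were 2 such members in Q7SST, Slc2a3 and Fbp2 (0.146% of genes), and 1 with cyproheptadine, Fbp2 (0.0249%). With loxapine (0.032%), DKI (0.0329%) and meclizine (0.0634%) there was none.

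The study paired cyproheptadine with loxapine and DKI with meclizine by other measurements. All 4 were given at the same concentration and time. Counts of members at least 5 points lower than in Q111SST were 24 (44.1% of all genes) and 12 (22.4%) in the former pair and 23 (55.9%) and 9 (27.8%) in the latter. Within each pair the counts had the same order as the shares over all genes. Cyproheptadine and DKI, with the higher counts, were also the lists with the fewest peaks, 33721 and 30758. The difference between compounds was not tested, since each had 1 list.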

How the data were processed

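H3K4me3 ChIP-Seq was measured in STHdh cells under 6 conditions, with 1 deposited list of peaks each. Crosslinked chromatin was cut by micrococcal nuclease before immunoprecipitation, and libraries were read from a single end. Per the submitters' processing notes, Trimmomatic 0.36, Bowtie2, SAMtools 1.3 and MACS2 were used and the build was mm10. The peak-calling thresholds, any input control and any pooling of replicates are not given in the sources used here, and the design text speaks of treatment in triplicate. The deposited files hold each peak's position and a score made by the authors, whose scale is not stated, so scores were used as ranks within a list. The stricter threshold below is the exception, since it sets 1 score for all lists.

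Peaks were joined to starts of GENCODE mouse release 21 transcripts on GRCm38. Of 22 chromosomes compared, 0 had a peak past the end. Strength is the mid-rank percentile, so tied scores share a rank. Shifts of 5 points and widths at least 25% wider or 20% narrower were counted, beside the share over all genes marked in both lists. Promoter windows came from RefSeq on GRCm38.p6. Members, gene lists and counts were chosen with earlier results of these data known, and the genes named are the listed members, grouped by role, and the listed pathway and marker genes. Python 3.11.15, pandas 2.3.3, numpy 2.4.6, scipy 1.17.1 and matplotlib 3.10.9 were used, and the scripts were tested on simulated data. Alternatives were windows of 0 bp and 5 kb, lists of equal size, a stricter score, protein-coding transcripts, percentiles among marked genes, other thresholds, summed widths and merged peaks.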

Additional observations from a re-analysis of the deposited data

How the results depend on the processing

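Of 206 alternative values, 157 stayed within their limits and 49 moved. The limits were the 95% binomial interval of the median's rank for medians and 1.5 times for counts. No paired analysis was possible because there was 1 list per condition and no replicate number. The 3 alternatives with joined starts or with the median shift of all genes subtracted were chosen after seeing the data. No read depth was known, so weak peaks at Aldoc, Fbp2 or the first Hif1a start in Q7SST could not be told from sampling of reads. The cause of each change listed here was not tested.

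Counts of marked members moved in no alternative, though the stricter score of 47 left 24 with cyproheptadine. With lists of the strongest 30758 peaks, the median strength of members became 70.8 in Q7SST, 61.4 with loxapine and 67.0 with meclizine. Ranked among marked genes in place of all peaks, the medians were 42.0 in Q7SST, 34.9 in Q111SST, 31.8 under cyproheptadine, 32.5 under loxapine, 33.8 under DKI and 36.2 under meclizine, below the midpoint in all 6 lists.

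Among shifts against Q111SST, ranking among marked genes gave 16 members higher in Q7SST (35.1% of genes), 12 with DKI (27.9%) and 12 with meclizine (26.6%), and 15 lower with DKI (42.1%). Lists of equal size gave 21 lower with loxapine (38.8%), 12 lower (37.5%) and 10 higher (21.9%) with DKI, and 10 higher with meclizine (16.1%). A threshold of 10 points gave 4 members lower in Q7SST (13% of genes), 4 under loxapine (9.41%), 15 under DKI (38.8%) and 5 under meclizine (10%), while 2 were higher with cyproheptadine (3.48%) and 2 with meclizine (4.18%). A window of 0 bp gave 3 higher with cyproheptadine (6.96%) and 3 with meclizine (9.69%). Comparing the same group of starts gave 6 higher in Q7SST (17.3%) and 0 with DKI (8.22%). After the median shift of all genes was subtracted, 9 were higher and 11 lower with DKI (29.6% and 33.8% of genes), and 10 were higher with meclizine (15.1%). The count of 24 members lower with cyproheptadine stayed within 1.5 times under the 7 alternatives run for it, from 18 to 24. The share over all genes ran from 25.9% to 46.6% under the same alternatives.

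For widths, comparing the same group of starts kept all 10 counts within 1.5 times. A ratio of 1.5-fold gave 3 wider in Q7SST (5.82% of genes), 3 wider with loxapine (2.52%) and 4 narrower with DKI (18.7%). Summed widths gave 1 wider with DKI (1.49%), and merged peaks gave 0 wider with DKI (2.28%) and 1 with meclizine (5.22%). For lost members, a window of 0 bp gave 6 under cyproheptadine (6.51% of genes), 3 under loxapine (3.93%), 5 under DKI (5.02%) and 2 under meclizine (1.33%). A window of 5 kb gave 0 in Q7SST (2.75%), under cyproheptadine (4.17%), loxapine (1.33%) and DKI (3.89%). Lists of equal size gave 0 lost in Q7SST (1.93%), with loxapine (1.89%) and with DKI (1.5%), 1 lost with cyproheptadine (2.02%) and 1 gained with meclizine (1.15%).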

Other observations

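Genes of neighbouring steps that are not members ranked higher than the members. Over the 36 further pathway genes, the median strength of those marked was 82.7 in Q7SST, 86.8 in Q111SST and 72.6 with DKI, where the members stood at 76.6, 75.8 and 66.1. Further genes of the pyruvate dehydrogenase complex differed in strength. Pdha1, a subunit of the first enzyme, lay between 50.0 and 72.4 over the 6 lists. Pdhx, which holds the complex together, lay between 87.5 and 94.2 over the 6 lists, and Pdp2, a phosphatase that switches the complex on, between 82.6 and 97.2. Its relative Pdp1 lay between 66.8 and 79.5. Dld, the third enzyme of the complex, was 82.7 in Q7SST and between 89.1 and 97.7 in the 5 mutant-line lists.

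Bpgm, the mutase that makes 2,3-bisphosphoglycerate, differed between the lines, with strength 57.9 in Q7SST and 90.7 in Q111SST. With the compounds it was 90.2 (cyproheptadine), 76.0 (loxapine), 93.0 (DKI) and 96.6 (meclizine), so all 5 mutant-line lists were above Q7SST. Slc2a4, the insulin-responsive glucose transporter, was 95.7 in Q7SST and 89.8 in Q111SST, and between 72.6 (DKI) and 87.0 (meclizine) with the compounds. Of the pentose phosphate pathway, which branches off upper glycolysis, G6pdx lay between 56.0 and 72.0 and Pgd between 59.1 and 79.7. Tkt, its transketolase, lay between 56.0 and 66.2 in 5 lists and at 39.7 with DKI. Taldo1, its transaldolase, stood above these 3 genes in each list and was lowest with DKI at 78.8. These genes were singled out after their values were seen, and with 1 list per condition no difference was tested.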
